A study of Mus musculus with 6 samples.

Results

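The regions described here are 94 stretches of DNA in 3 clusters of zinc finger genes on mouse chromosomes 2, 13 and 17, out of 22574 regions on the array. A member is a run of 3 or more array probes, with no step over 500 bp between the starts of neighbours, inside 1 of 3 windows of the mm9 build (chr2:175000000-177600000, chr13:66300000-68000000 and chr17:20950000-23300000). The chromosome 2 cluster held 26 regions with 170 probes, the chromosome 13 cluster 33 regions with 251 probes, and the chromosome 17 cluster 35 regions with 258 probes. Of the 687 probes in the windows, 8 belonged to no run and were left out. Members had a median of 7 probes and 1554.5 bp. Neighbouring regions started a median of 67388 bp apart on chromosome 2, 27154 bp on chromosome 13 and 45491.5 bp on chromosome 17. Regions are numbered along each chromosome. No column of the array files links probes to genes, so no region is given a gene name or an exon, intron or UTR.

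The samples were hypothalamus, a brain region that controls appetite and energy use, from mouse offspring 16 weeks old. One group came from dams given inulin, a fermentable plant fibre (inulin group, n = 3). The others were offspring of dams labelled maternal obesity and maternal high fat diet (obesity group, n = 3). Whether the inulin dams were also obese, the strain, the sex and the litters are not given in the sources used here, so p-values measure only the spread between these samples. On each two-colour array the DNA pulled down by an antibody against methylated cytosine (MeDIP, Cy5) was hybridised together with that sample's total, unselected DNA (input, Cy3).

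Genes for C2H2 zinc finger proteins lie in such clusters because they multiply by duplication of neighbouring copies. Most of these proteins in the mouse carry a KRAB domain, through which they recruit the co-repressor TRIM28 and silence chromatin, and many bind the DNA of transposable elements. The chromosome 13 cluster holds the Rsl genes (regulator of sex-limitation), which repress male-specific genes of the liver. In MeDIP the antibody pulls down DNA according to how many methylated CpGs a fragment holds, so a fragment with few CpGs gives a low ratio of MeDIP over input even where those CpGs are methylated. A young duplicate also shares its sequence with its copies, and DNA of each copy can hybridise to a probe that matches several.

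How alike neighbouring genes of these clusters are can be seen in RefSeq promoter sequences of a later build (GRCm38.p6), matched by gene symbol only. The runs were taken between flanking genes named from general knowledge of the loci, and no coordinate ties them to the mm9 regions here. Each promoter window spans 250 bases before the gene start and 50 bases after it. In the chromosome 2 run 31 of 32 protein-coding genes had such a window, and 27 of them shared 50% or more of their 20-base words with the window of another gene (87.1%, against 7.13% of 17492 protein-coding genes). The median share was 92.9% there, against 6.23% for 24 of 27 genes in the chromosome 13 run and 4.45% for 30 of 33 genes in the chromosome 17 run. In those runs 0 of 24 and 8 of 30 windows shared 50% or more. The median number of CpGs per window was 4 on chromosome 2 (range 1 to 5), 8 on chromosome 13 (3 to 16) and 7.5 on chromosome 17 (0 to 22), against 13 over all protein-coding genes. The chromosome 17 run holds vomeronasal receptor genes beside its zinc finger genes: 19 of its 30 windows belong to genes with Zfp symbols.

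The pair of Zfp or Rsl genes whose windows shared the most 20-base words without being identical is shown for each run, as the 250 bases before the gene start, 5′ to 3′ on the gene's own strand, with bases that do not align to an identical base of the partner in capitals. On chromosome 2 the pair differed at 1 of 250 bases and each held 3 CpGs. On chromosome 13 it was identical at 225 of 250 bases, and on chromosome 17 at 242 of 250, where each held 17 CpGs.
Zfp968 (chromosome 2): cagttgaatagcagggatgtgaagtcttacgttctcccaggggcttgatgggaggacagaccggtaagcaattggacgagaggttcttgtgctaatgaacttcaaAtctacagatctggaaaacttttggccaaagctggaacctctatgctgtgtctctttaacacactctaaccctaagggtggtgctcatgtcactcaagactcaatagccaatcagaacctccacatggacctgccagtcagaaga
Zfp973 (chromosome 2): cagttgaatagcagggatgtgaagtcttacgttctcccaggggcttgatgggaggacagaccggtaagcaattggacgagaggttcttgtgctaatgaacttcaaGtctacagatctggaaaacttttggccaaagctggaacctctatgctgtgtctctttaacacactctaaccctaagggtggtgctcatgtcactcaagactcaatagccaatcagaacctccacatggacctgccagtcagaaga
Rsl1 (chromosome 13): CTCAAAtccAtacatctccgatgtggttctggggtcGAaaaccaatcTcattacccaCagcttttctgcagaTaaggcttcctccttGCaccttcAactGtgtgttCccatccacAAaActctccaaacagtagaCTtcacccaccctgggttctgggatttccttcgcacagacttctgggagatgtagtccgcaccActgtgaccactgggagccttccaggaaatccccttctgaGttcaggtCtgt
Zfp429 (chromosome 13): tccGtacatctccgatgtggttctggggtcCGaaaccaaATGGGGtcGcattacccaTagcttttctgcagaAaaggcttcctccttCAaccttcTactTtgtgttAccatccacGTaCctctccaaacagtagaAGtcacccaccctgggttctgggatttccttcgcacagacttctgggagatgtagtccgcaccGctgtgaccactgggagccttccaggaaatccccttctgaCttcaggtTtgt
Zfp943 (chromosome 17): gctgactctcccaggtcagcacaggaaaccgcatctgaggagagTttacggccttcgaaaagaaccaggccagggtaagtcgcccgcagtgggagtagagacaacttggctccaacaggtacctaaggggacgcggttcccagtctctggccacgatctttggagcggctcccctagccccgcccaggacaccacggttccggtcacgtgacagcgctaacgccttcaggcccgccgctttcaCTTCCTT
Zfp758 (chromosome 17): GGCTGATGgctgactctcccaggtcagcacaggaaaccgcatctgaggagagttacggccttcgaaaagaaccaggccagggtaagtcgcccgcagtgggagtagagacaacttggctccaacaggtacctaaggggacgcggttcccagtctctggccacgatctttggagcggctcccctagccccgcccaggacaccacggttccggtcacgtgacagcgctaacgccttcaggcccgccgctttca

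The 3 inulin arrays shared slide 1. Slide 2 held obesity arrays 1 and 3, and slide 3 held obesity array 2. A difference between the groups therefore cannot be told apart from one between slides. Of 174638 probes per array, 94.4% to 96.4% had an input signal well above background and 77.3% to 85.7% a MeDIP signal well above it. Values below are on the log2 scale, with each array centred on its median over all probes, for the ratio and for each channel alone. A region's value is the mean of its probes. Feature Extraction, the scanner software, had marked spots as outliers more often on chromosome 2 than elsewhere, and such spots were left out. There 57 of 170 probes (33.5%) had an outlier spot on at least 1 array, against 7.97% of the chromosome 13 probes, 6.59% of the chromosome 17 probes and 7.37% of probes in other regions. No chromosome 2 region had all its probes on all 6 arrays, so its mean rests on partly different probes from array to array. Values over the probes measured on all 6 arrays, an alternative chosen after the data were seen, are therefore given beside the chromosome 2 results.

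The first question is how bright and how enriched the clusters were. The chromosome 2 cluster combined a very bright input with a very low ratio of MeDIP over input, and the other clusters did not. On each array the cluster value is the median over its regions. The input signal of the chromosome 2 cluster was 3.15, 3.14 and 2.85 on inulin arrays 1, 2 and 3, and 2.71, 2.76 and 2.44 on obesity arrays 1, 2 and 3. All 6 arrays were thus far above the array median, and it exceeded the median of the regions outside the 3 clusters by 2.80 ± 0.25 (SD over 6 arrays), a 6.95-fold brighter signal. Its ratio was -2.20, -2.24 and -2.18 on the inulin arrays and -2.44, -2.60 and -2.39 on the obesity arrays, a difference of -2.29 ± 0.15 from the other regions (4.89-fold lower). Its MeDIP signal was nonetheless above that of the other regions on 6 of 6 arrays, by 0.43 ± 0.29. Over probes with an input above background this was 0.15 and no longer had 1 sign on all arrays. Brightness of different probes depends on their sequence as well as on the DNA, so these are differences in signal and not in copy number or methylation.

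The chromosome 13 and 17 clusters were near the rest of the array in input and moderately low in ratio. The chromosome 13 cluster exceeded the other regions in input by 0.21 ± 0.064 and differed from them by -0.65 ± 0.086 in ratio and -0.69 ± 0.11 in MeDIP signal. The chromosome 17 cluster was below the other regions in all 3 measures, with differences of -0.32 ± 0.094 in input, -0.99 ± 0.17 in ratio and -1.44 ± 0.11 in MeDIP signal. Each of these differences had the same sign on 6 of 6 arrays, except that over probes with an input above background the chromosome 17 input difference was -0.052 and its sign varied. Between the clusters, the input of chromosome 2 exceeded that of chromosome 13 by 2.59 ± 0.23 and that of chromosome 17 by 3.12 ± 0.31, again on 6 of 6 arrays. Against the other regions of their own chromosome the input differences were 2.93, 0.32 and -0.42 for chromosomes 2, 13 and 17, so the brightness of the chromosome 2 cluster was not shared by the rest of that chromosome.

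**Figure D1:**
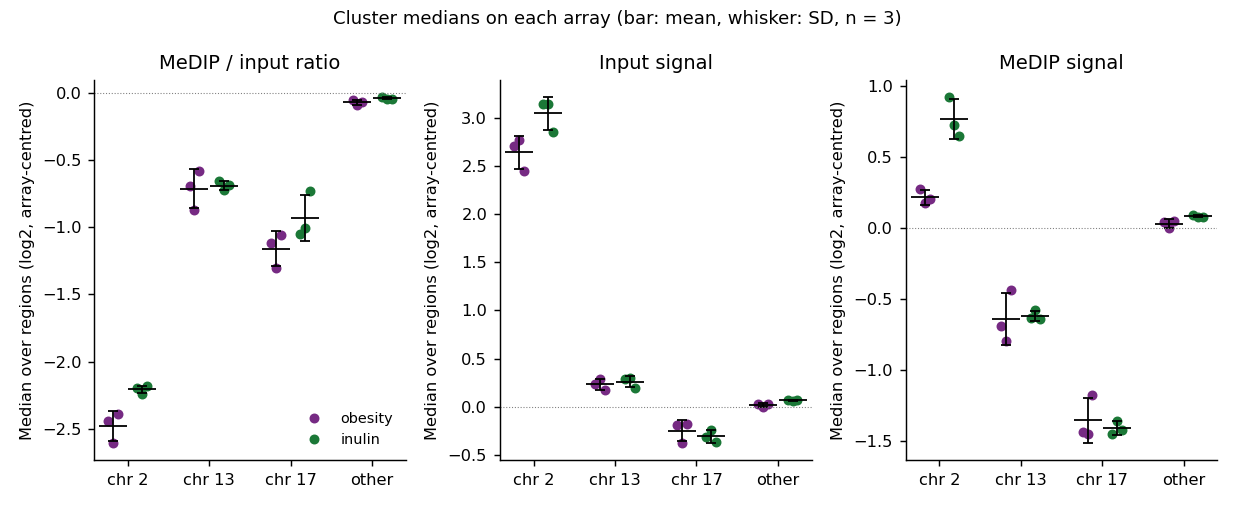
Median over the regions of each cluster on each array, log2 and array-centred, for the ratio of MeDIP over input, the input signal and the MeDIP signal; points are arrays, bars and whiskers the mean and SD (n = 3 per group), and "other" the regions outside the clusters. The chromosome 2 cluster lies lowest in ratio, at -2.21 and -2.48, and highest in input, with the inulin arrays above the obesity arrays in all 3 panels.

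The 26 regions of the chromosome 2 cluster were alike in level. Each lay above the 90th percentile of all regions in input (from the 92.8th to the 99.8th percentile) and below the 10th percentile in ratio (from the 0.217th to the 2.21th). Their mean ratios spanned -2.90 to -1.90, with an SD over regions of 0.23, against 0.56 on chromosome 13 and 0.63 on chromosome 17. Their mean inputs spanned 1.32 to 3.72. The input signal was above background on all 6 arrays at 99.4% of their probes and the MeDIP signal at 87.1%. On chromosome 13, 4 of 33 regions were above the 90th percentile in input and 9 below the 10th in ratio. On chromosome 17 these were 3 and 20 of 35 regions, and 8 regions were below the 10th percentile in input. There the MeDIP signal was above background on all 6 arrays at 53.1% of the probes, against 66.9% on chromosome 13 and 73.6% in other regions.

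**Figure D2:**
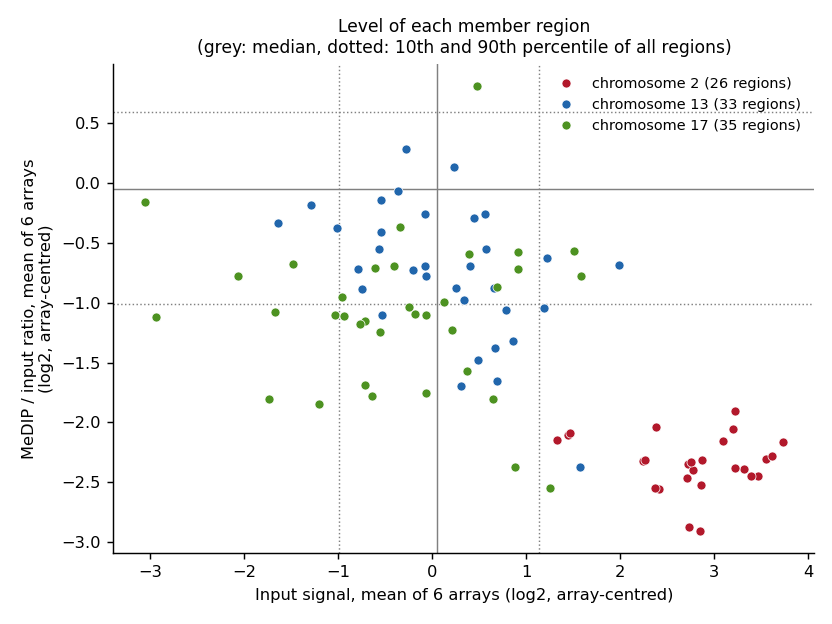
Mean input signal (x axis) against mean ratio of MeDIP over input (y axis) of the 94 member regions over 6 arrays, log2 and array-centred; grey lines mark the median and dotted lines the 10th and 90th percentiles of all 22574 regions. The 26 chromosome 2 regions lie together at high input and low ratio, with 1 chromosome 13 region and 1 chromosome 17 region beside them, and most regions of the other clusters spread around the median input.

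Within the chromosome 2 cluster the 2 brightest regions lay at its ends. Region 1 (chr2:175032082-175033562, 7 probes) had a mean input of 3.72 and region 26 (chr2:177574742-177576221, 7 probes) of 3.61. The highest ratios, -1.90 and -2.04, were those of region 5 (chr2:175261035-175262477) and region 25 (chr2:177492707-177494202). The lowest, -2.90 and -2.87, were those of region 16 (chr2:176265474-176266778) and region 8 (chr2:175638228-175639532). Both ends of this order were far below the array median of all regions, -0.055.

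On chromosome 13 the brightest input was that of region 5 (chr13:67161608-67162385, 4 probes), at 1.98, with a ratio of -0.68. Next came region 1 (chr13:66541641-66543224, 8 probes), at 1.58, the region nearest the start of the window and the one with the lowest ratio of that cluster, -2.37. It thus resembled the chromosome 2 regions in both measures. Region 25 (chr13:67710149-67711911) had the next lowest ratio, -1.69, at an input of 0.31. The highest ratios were 0.28 at region 13 (chr13:67379347-67379996) and 0.13 at region 33 (chr13:67963253-67964557), the only member regions of that cluster with a ratio above 0.

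On chromosome 17 the brightest inputs were 1.58 at region 25 (chr17:22302556-22304116) and 1.504 at region 27 (chr17:22497209-22499044). The highest ratio of all 94 regions, 0.81, was that of region 7 (chr17:21144618-21146161, 7 probes), at the 96.2th percentile of the array. In that cluster region 10 (chr17:21423117-21423982, 5 probes) came next, at -0.16, but its input and MeDIP signals were above background on all arrays at 1 of 5 probes, and its input of -3.05 was near the bottom of the array. The lowest ratios, -2.55 and -2.37, were those of region 34 (chr17:23140775-23141282) and region 35 (chr17:23141750-23142259), 2 neighbouring runs of 3 probes at the end of the cluster whose inputs were 1.25 and 0.88.

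Brighter regions had lower ratios on chromosome 13, and the relation was close to 0 on chromosome 17. Across regions, Pearson's r between mean input and mean ratio was -0.13 on chromosome 2 (26 regions), -0.49 on chromosome 13 (33) and -0.075 on chromosome 17 (35), against -0.049 over 22478 other regions. Longer probes went with lower ratios on chromosome 17 (r = -0.54), chromosome 13 (r = -0.36) and in other regions (r = -0.68), but with higher ratios on chromosome 2 (r = 0.53). These regions share arrays and the ratio contains the input, so the coefficients are descriptions.

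Many chromosome 2 regions were tiled in the same way. A layout is the order of lengths and spacings of 4 neighbouring probes. Of the 26 regions, 18 shared a layout with another region of the cluster, whereas 0 of 32 chromosome 13 regions and 0 of 33 chromosome 17 regions with 4 or more probes did so within theirs. Anywhere on the array 19 of 26 chromosome 2 regions shared one (73.1%), against 20.3% of other regions. In 13 regions the whole layout was identical to that of another, in 6 sets: regions 5, 14 and 18, and the pairs 6 and 15, 7 and 21, 8 and 16, 9 and 13, and 11 and 17. The array files used here give no probe sequences, so whether such probes hold the same sequence was not tested. Layouts were compared after the data were seen.

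Probes at the same place in the same layout gave nearly the same signal. In 38 sets of 107 such probes the input signal had an SD of 0.16 to 0.19 within sets, array by array, against 1.29 to 1.40 between sets. The ratio had an SD of 0.13 to 0.20 within sets and 0.81 to 1.04 between them, and the MeDIP signal 0.19 to 0.33 and 1.68 to 1.89. Regions 9 and 13 are an example: the inputs of their first probes lay between 4.90 and 4.95 and the ratios between -0.48 and -0.45. The region means followed, with ratios of -2.45 at both, of -2.10 and -2.09 at regions 7 and 21, and of -2.39 and -2.38 at regions 11 and 17. The 26 regions are therefore not 26 independent readings.

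Inside a region the ratio varied more than between the regions of the cluster. In regions 5, 14 and 18 the first probe had a mean ratio of 0.60 and a mean MeDIP signal of 3.61, and the third, which starts 423 bp further on, had a ratio of -3.48 and a MeDIP signal of -0.45 at nearly the same input (2.95 and 2.97). The sixth probe was the brightest in input, at 5.27. In regions 9 and 13 the ratio was -0.47 at the first probe and -3.32 at the fifth, and in regions 11 and 17 it was -0.79 and -3.38. In each of these 7 regions the first probe thus had the highest ratio. The 3 other identical layouts were different. In regions 6 and 15 the second probe was highest (-1.68, against -2.82 at the first), in regions 7 and 21 the fifth (-1.36, against -1.60 at the first), and in regions 8 and 16 the first was the lowest, at -3.30.

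The second question is where offspring of inulin dams differed from offspring of obese dams. In the chromosome 2 cluster the ratio and both channels were higher in the inulin group, the MeDIP signal most. The median over its regions in MeDIP signal was 0.92, 0.73 and 0.65 on inulin arrays 1, 2 and 3, and 0.27, 0.17 and 0.20 on obesity arrays 1, 2 and 3. The groups did not overlap, with 0.76 ± 0.14 against 0.21 ± 0.053 (SD, n = 3 each) and a difference of 0.55. The input was 3.04 ± 0.17 against 2.64 ± 0.17, a difference of 0.40, and the ratio -2.21 ± 0.029 against -2.48 ± 0.11, a difference of 0.27; the groups overlapped in neither. With normexp background correction the ratio difference was 0.068 and the groups overlapped, with 18 of 26 regions higher after inulin. In the regions outside the clusters the same differences were 0.053 (MeDIP), 0.046 (input) and 0.031 (ratio). No p-value is given for these medians, since the members were chosen with results of these data known, and 3 arrays against 3 could not go below an exact p of 0.1.

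The chromosome 13 medians differed by less than the spread between arrays, by 0.024 in ratio, 0.027 in input and 0.023 in MeDIP signal, with overlapping groups. On chromosome 17 the ratio was -1.05, -1.01 and -0.73 on inulin arrays 1, 2 and 3 and -1.12, -1.30 and -1.06 on obesity arrays 1, 2 and 3. The groups did not overlap, although inulin array 1 and obesity array 3 nearly met, and the difference was 0.23. It was 0.040 with normexp and 0.13 over probes with an input above background, and the groups overlapped in both. Both channels overlapped there, with differences of -0.058 (input) and -0.055 (MeDIP). Taken per array, the gap between the chromosome 2 and chromosome 13 medians in MeDIP signal averaged 1.39 on inulin arrays and 0.86 on obesity arrays, a difference of 0.53 with no overlap. For chromosome 2 against chromosome 17 that difference was 0.61 in MeDIP signal and 0.46 in input, with no overlap, and 0.043 in ratio, where the groups overlapped.

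Region by region, limma with Benjamini-Hochberg adjustment over all 22574 regions called 1675 of them on the ratio at an adjusted p under 0.05 (7.42%; 5.61% higher and 1.81% lower in the inulin group). In the chromosome 2 cluster 7 of 26 regions rose in the inulin group and 0 fell. In the chromosome 17 cluster 5 of 35 rose and 0 fell, and in the chromosome 13 cluster 1 of 33 rose and 0 fell, a share below that of the whole array. At an unadjusted p under 0.05, limma gave 17, 14 and 8 regions on chromosomes 2, 17 and 13, where the whole array had 28.6% (19% higher and 9.6% lower). All but 2 of these, on chromosome 13, were higher in the inulin group. The ratio was higher in the inulin group at 25, 31 and 24 of the regions on chromosomes 2, 17 and 13, against 57.3% of all regions. The median difference was 0.28, 0.19 and 0.050, against 0.033 over all regions. The groups were apart with the inulin group higher at 19, 13 and 4 regions (20.8% of all regions with 6 values), and with it lower at 0 in each cluster (14.2%, and 35% in either direction). Over 22478 other regions, a lower mean ratio went with a more positive group difference (Pearson's r = -0.51). Within the clusters r was -0.095, -0.40 and -0.25 on chromosomes 2, 17 and 13. All 26 chromosome 2 regions and 20 of 35 chromosome 17 regions were below the 10th percentile in ratio. Whether the clusters differed by more than other regions of equally low ratio was not tested.

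The channels behind the ratio differed between the clusters. On chromosome 2 both channels were higher in the inulin group at 25 of 26 regions, and the MeDIP signal differed by more than the input at all but 1. The median difference was 0.56 in MeDIP signal and 0.30 in input. On chromosome 17 the inulin group had the lower input at 27 of 35 regions (median difference -0.10) and the higher MeDIP signal at 21 (60%, median difference 0.11). On chromosome 13 the median differences were 0.017 in input and 0.036 in MeDIP signal. Over all regions the input was higher in the inulin group at 57.9% (median difference 0.043) and the MeDIP signal at 62.4% (0.066). The chromosome 17 share in MeDIP signal was thus near that of the array. By limma, the input signal alone called 1 chromosome 2 region, higher in the inulin group, and 0 regions on chromosomes 13 and 17 (2.14% of all regions, 1.24% higher and 0.899% lower). At an unadjusted p under 0.05 these were 11, 7 and 4 regions, against 24.4% (15.6% higher and 8.8% lower). The 11 were all higher in the inulin group and the 4 all lower. The MeDIP signal alone called 1 chromosome 2 region, also higher, and 0 on the others (0.253% of all regions, 0.155% higher and 0.0975% lower), and its unadjusted p was under 0.05 at 22, 5 and 9 regions on chromosomes 2, 13 and 17, all higher, against 21% (15.2% higher and 5.78% lower). On chromosome 2 the MeDIP groups were apart with the inulin group higher at 23 of 26 regions and lower at 0 (22.4% and 9.61% of all regions; 32% in either direction). For the input they were apart at 9 chromosome 2 regions, all higher, and at 9 chromosome 17 regions, 8 of them lower, and at 11 chromosome 13 regions, 8 of them higher (34.2% of all regions, 22% higher and 12.2% lower).

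Probe by probe, limma on the ratio called 21 higher and 0 lower of 138 tested chromosome 2 probes, 14 and 10 of 243 on chromosome 13, and 28 and 4 of 251 on chromosome 17. Over the whole array 8.21% of probes were called, 5.12% higher and 3.08% lower.

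**Figure D3:**
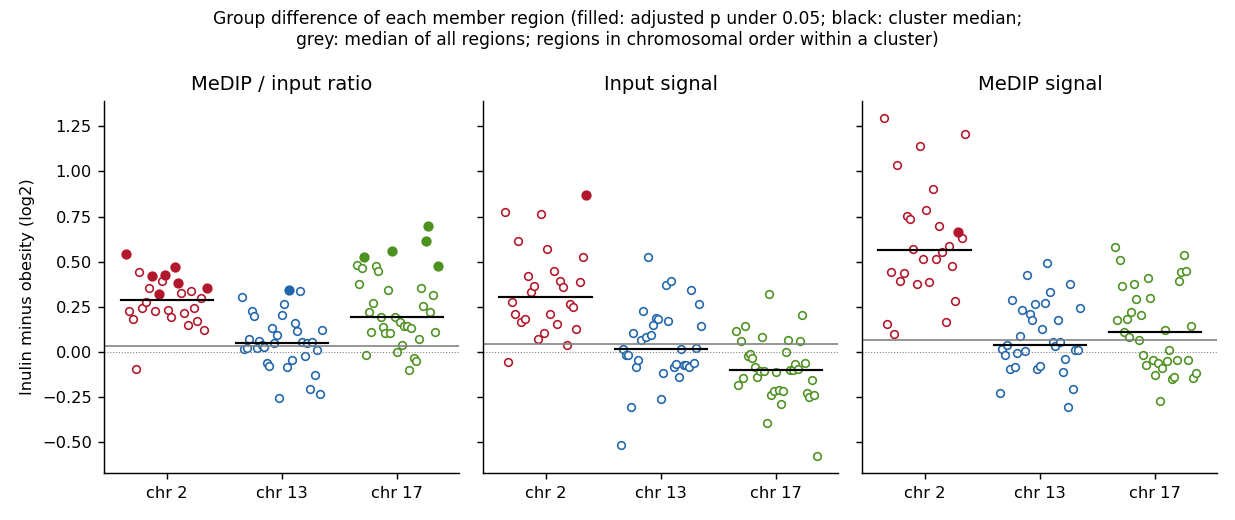
Difference of each member region, inulin minus obesity on the log2 scale, in the ratio of MeDIP over input, the input signal and the MeDIP signal; filled points passed an adjusted p of 0.05 (limma), black bars are cluster medians and grey lines the median of all regions. In MeDIP signal all 26 chromosome 2 regions lie above 0, with a median of 0.56, and in ratio the filled points lie above 0 in every cluster.

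Over the probes measured on all 6 arrays the chromosome 2 result held its direction and gained calls. The ratio then rose at 11 of 26 regions, of which 6 were among the 7 above, where 10.4% of all regions were called (limma, adjusted p under 0.05). The MeDIP signal rose at 17 regions (7.47% of all regions called) and the input at 10 (17.6%), and 0 fell in either. The chromosome 17 ratio rose at 7 regions, including the same 5, and the chromosome 13 ratio at 3. More regions were called over the whole array as well in this setting.

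Region 1 had the largest ratio difference of the chromosome 2 cluster. Its ratio was -1.74, -2.03 and -1.91 on inulin arrays 1, 2 and 3, and -2.42, -2.61 and -2.28 on obesity arrays 1, 2 and 3, a difference of 0.54 (limma SE 0.11, adjusted p = 0.0259). Both channels were also apart: the input was 4.11 ± 0.26 against 3.34 ± 0.17 (inulin against obesity), and the MeDIP signal 2.27 ± 0.34 and 0.97 ± 0.29. The MeDIP difference of 1.30 did not pass the adjusted threshold (limma, adjusted p = 0.0753), and all 7 probes were above background in both channels. Over the 5 probes measured on all arrays the ratio difference was 0.56 and the MeDIP difference 1.31, with adjusted p = 0.0241 and 0.0128 (limma).

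The input was higher in the inulin group at 25 of 26 chromosome 2 regions. Region 26, at the other end of the cluster, was the 1 whose input passed the adjusted threshold over all its probes. Its input was 4.23, 4.12 and 3.80 on inulin arrays 1, 2 and 3 and 3.10, 3.13 and 3.31 on obesity arrays 1, 2 and 3, a difference of 0.87 (limma SE 0.13, adjusted p = 0.039). Its MeDIP signal differed by more, 1.21 (adjusted p = 0.0591), so the ratio rose as well, by 0.35 (adjusted p = 0.0345). Only 2 of its 7 probes were measured on all arrays, and over those the input difference was 0.49 and the ratio difference 0.52.

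Region 24 (chr2:177281653-177283362, 8 probes) was the member whose MeDIP signal rose. Its MeDIP signal was 1.03, 0.97 and 0.87 on inulin arrays 1, 2 and 3 and 0.31, 0.30 and 0.28 on obesity arrays 1, 2 and 3, so the groups were apart and the obesity arrays nearly equal. The difference was 0.66 (limma SE 0.074, adjusted p = 0.0456). Its ratio differed by 0.30, which did not pass (adjusted p = 0.0993).

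Region 16, which had the lowest ratio of the cluster, rose from -3.14 ± 0.24 in the obesity group to -2.67 ± 0.034 in the inulin group (difference 0.47, limma adjusted p = 0.041). Its MeDIP signal was 0.54, 0.61 and 0.22 on inulin arrays 1, 2 and 3 and -0.43, -0.51 and -0.39 on obesity arrays 1, 2 and 3. Region 8, of the same layout, had a ratio of -2.69 ± 0.15 and -3.04 ± 0.24, a difference of 0.35 that did not pass (adjusted p = 0.11). Region 13 (chr2:175929777-175931142, 6 probes) had a ratio of -2.25, -2.20 and -2.26 on inulin arrays 1, 2 and 3 and -2.74, -2.65 and -2.61 on obesity arrays 1, 2 and 3, with an adjusted p of 0.0197 (limma), the lowest of the cluster. That call rested on spots that were not measured on every array: over the 3 probes with 6 values the difference was 0.11 in place of 0.43 (adjusted p = 0.42). The other calls were regions 9, 11 and 17.

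At the remaining named chromosome 2 regions the ratio did not pass. Region 5 differed by 0.44 in ratio (adjusted p = 0.0636) and by 1.04 in MeDIP signal (adjusted p = 0.146). Region 25 had obesity ratios from -2.48 to -1.64, around inulin ratios from -2.12 to -1.81, and its difference of 0.12 became -0.061 over the 4 probes with 6 values. Region 4 (chr2:175196972-175198258) was the one with a lower ratio over all its probes in the inulin group, a difference of -0.095 (adjusted p = 0.567), and over its 5 probes with 6 values the difference was 0.015.

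On chromosome 13 the 1 region whose ratio passed the adjusted threshold was region 20 (chr13:67552087-67553000, 5 probes, all measured on all arrays). Its ratio was -0.54, -0.48 and -0.57 on inulin arrays 1, 2 and 3 and -0.87, -0.73 and -1.005 on obesity arrays 1, 2 and 3 (difference 0.34, limma SE 0.085, adjusted p = 0.0455). Its MeDIP signal was 0.013 ± 0.10 against -0.48 ± 0.11 and its input 0.49 ± 0.063 against 0.32 ± 0.059, so it differed mostly in the MeDIP channel. Region 16 (chr13:67461022-67462704) had the lowest p among regions with a lower ratio, -0.82 ± 0.076 against -0.56 ± 0.21, and did not pass (adjusted p = 0.151). Region 5, the brightest, had a lower input in the inulin group, 1.83 ± 0.090 against 2.14 ± 0.058, with no overlap (adjusted p = 0.0856). Region 1 also had a lower input, 1.32 ± 0.23 against 1.83 ± 0.25 (adjusted p = 0.131). Its input difference was -0.52, and over 5 probes with 6 values it was -1.09 (limma, adjusted p = 0.000247, with 17.6% of all regions called). In input this was the opposite direction to most of the chromosome 2 regions that it resembled in level. The ratio of region 1 was higher in the inulin group, as at most chromosome 2 regions. It differed by 0.30 (adjusted p = 0.134), and by 0.52 over those 5 probes (adjusted p = 0.0182, with 10.4% of all regions called).

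On chromosome 17 the largest difference was at region 31 (chr17:22954215-22955957, 9 probes). Its ratio was -1.43, -1.39 and -1.20 on inulin arrays 1, 2 and 3 and -1.90, -2.25 and -1.95 on obesity arrays 1, 2 and 3 (difference 0.70, limma SE 0.11, adjusted p = 0.0182). The MeDIP signal was above background on all 6 arrays at 2 of its 9 probes, and over probes above background in both channels the difference was 0.24. Region 30 (chr17:22736815-22738579, 9 probes) rose by 0.61 (adjusted p = 0.0334), from -2.15 ± 0.22 to -1.54 ± 0.23. There too 2 of 9 probes had a MeDIP signal above background, and over the probes bright in both channels the difference was -0.066. Region 16 (chr17:21671208-21672667, 6 probes, of which 4 had a MeDIP signal above background) rose by 0.56 (adjusted p = 0.0236), and by 0.63 over the bright probes.

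The other chromosome 17 calls were region 4, with a difference of 0.53 and of 0.52 over probes above background in both channels, and region 35. Region 35, which had one of the lowest ratios, was -2.14 ± 0.025 against -2.61 ± 0.26 (adjusted p = 0.045), a difference of 0.48. Only 1 of its 3 probes had a MeDIP signal above background on all 6 arrays, and at that probe the difference was 0.38. Over all 3 probes the MeDIP signal of region 35 was lower in the inulin group by 0.12. Its input was lower by 0.58 with no overlap (adjusted p = 0.0661), so the input differed by more than the MeDIP signal. Region 23 (chr17:22046404-22048133) had the lowest p among regions with a lower ratio, a difference of -0.0995 (adjusted p = 0.432). Region 7, with the highest ratio, was 0.86 ± 0.051 against 0.75 ± 0.185, within the spread between arrays. The brightest regions, 25 and 27, differed by -0.033 and 0.068. Over the whole chromosome 17 cluster the median ratio difference was 0.19 over all probes and -0.0016 where only probes with both signals above background were kept, a filter added with the data in view, whereas that of chromosome 2 was 0.28 and 0.30. The filter also moved the median of all regions, from 0.033 to -0.019, and it selects on the MeDIP signal that enters the ratio.

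On chromosome 2 the group difference followed the place in the layout. In 31 sets of 83 probes with values on 2 or more arrays of each group, the difference in input had an SD of 0.069 within sets and 0.45 between them. The difference in ratio had an SD of 0.17 within and 0.33 between, and that in MeDIP signal 0.19 and 0.52. In MeDIP signal 26 of 31 sets had a higher mean in the inulin group, in ratio 27 and in input 21. At the fourth probe of regions 9 and 13 the inulin group had the higher input, by 0.91 and 1.05, and at the next probe it was lower by 0.68 and 0.88. At the fifth probe of regions 11 and 17 it was lower by 0.75 and 0.78. The last probe of regions 8 and 16 was higher in MeDIP signal by 1.46 and 1.48. In regions 5, 14 and 18 the MeDIP signal at the third probe, where the ratio was lowest, was higher by 0.95 to 1.42, and at the first, where it was highest, by 0.092 to 0.18.

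**Figure D4:**
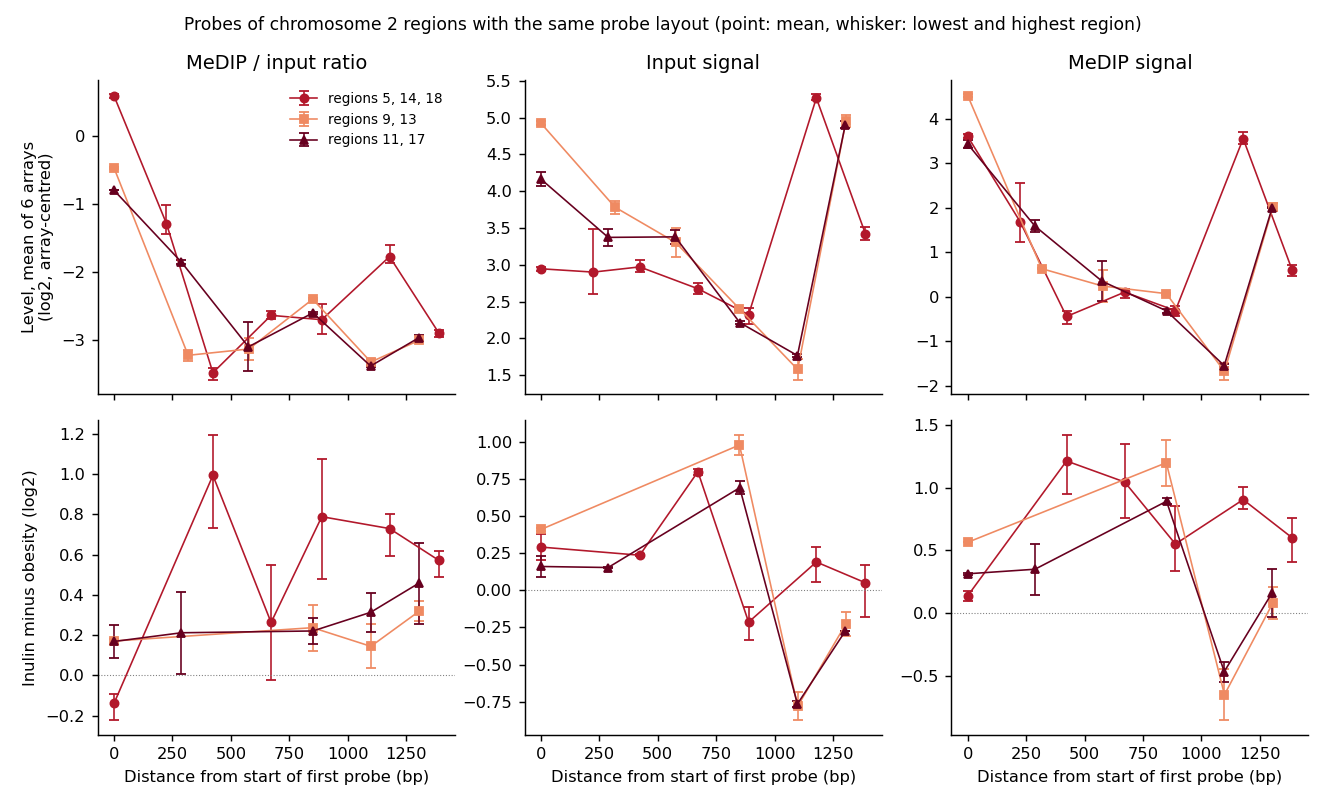
Probes of chromosome 2 regions that share a whole layout (5, 14 and 18; 9 and 13; 11 and 17), by distance of the probe from the start of the first probe in bp; the top row gives the level over 6 arrays and the bottom row the difference, inulin minus obesity, both log2, with points for the mean and whiskers for the lowest and highest region. Input differences of probes at the same place lie close together, while those of neighbouring probes go from 0.98 to -0.78 within regions 9 and 13.

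The calls depended on the slides and on how the arrays were scaled. With slide as a random block (estimated correlation 0.29) limma called 0 member regions on the ratio, as it called 0.00% of all regions. The unadjusted p was then under 0.05 at 15, 2 and 12 member regions on chromosomes 2, 13 and 17, against 17.9% of all regions. Leaving out any 1 inulin array also left 0 member regions past the threshold by limma (0.00% of all regions), with 14 to 16, 3 to 5 and 9 to 18 regions on these chromosomes at an unadjusted p under 0.05 (20.8%, 19.1% and 24.0% of all regions without inulin array 1, 2 and 3). With the arrays set to an equal spread of ratios, the ratio was higher in the inulin group at 2 of 26 chromosome 2 regions in place of 25. The median difference turned to -0.22, and 3 regions fell and 0 rose (4.04% of all regions called). The chromosome 13 median turned to -0.17 and that of chromosome 17 to -0.025. After quantile normalization 7 chromosome 2 regions had a higher ratio, and 11 did in the table the authors deposited, with medians of -0.099 and -0.062. The MeDIP and input signals of chromosome 2 kept their direction: the difference of the cluster medians was 0.35 to 0.58 in MeDIP signal and 0.22 to 0.53 in input over normexp, equal scale and the 4 filters on spots and probes. After quantile normalization the median difference over its regions was 0.54 in MeDIP signal and 0.20 in input. The unadjusted p (limma) was then under 0.05 at 21 of 26 regions in MeDIP signal (19.9% of all regions). In input it was at 4 (21.3%), a share below that of the array.

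**Figure D5:**
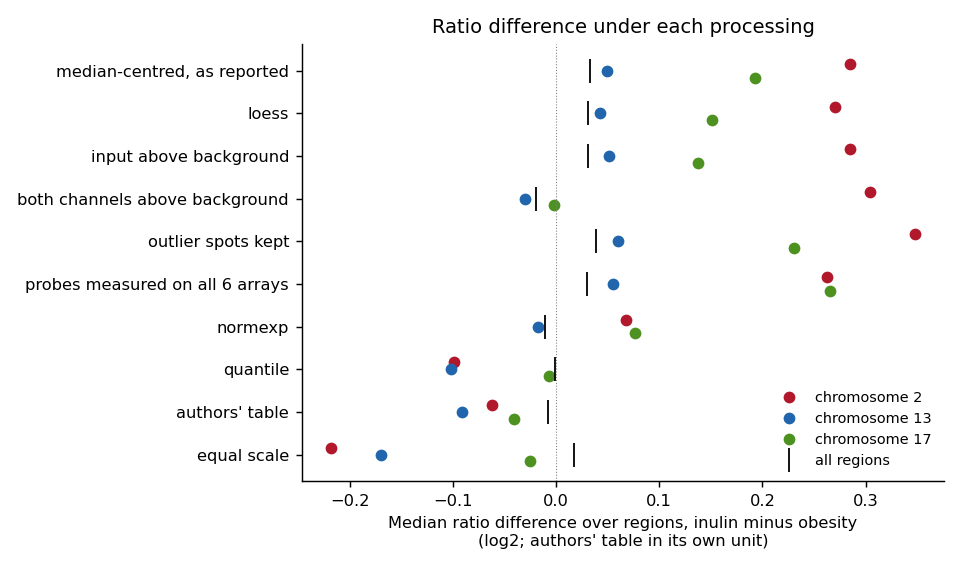
Median difference in the ratio over the regions of each cluster, inulin minus obesity (x axis, log2, with the authors' deposited table in its own unit), under each processing (y axis); vertical marks give the median of all regions. The chromosome 2 median runs from 0.35 with outlier spots kept to -0.22 at equal scale, and the chromosome 13 median changes sign as well.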

How the data were processed

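DNA methylation was measured by MeDIP in hypothalamus of 6 offspring, 1 two-colour array each (per the labels' protocols, Cy5 for MeDIP DNA and Cy3 for input DNA). The authors' scanner output came, per the file headers, from Feature Extraction 11.0.1.1 on build mm9 and holds background-subtracted, dye-scaled intensity per channel and a log10 ratio of red over green. The series value table holds a score per probe that the authors deposited with its scale and centring unstated, and it was used only as an alternative (r with the log2 ratio 0.87 to 0.91).

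From the deposited processed signals the log2 ratio and the log2 signal of each channel were computed, and each array was centred on its median probe. Control spots and spots that the software marked as outliers (1901 to 4863 per array) were left out. Probes were joined into regions and averaged. A limma fit (version 3.58.1, R 4.3.3) of the 2 groups ran over all 22574 regions, with Benjamini-Hochberg adjustment over all of them at 0.05. On simulated shifts of 0.5, 1, 2 and 3 this recovered 34, 45, 50 and 50 of 50 regions among 22572, with 14 false calls. The simulated noise was independent between regions and arrays and held no slide effect. These counts therefore do not give the rate of false calls on the real arrays. Depth does not apply to arrays, and their number limits the precision. The members, lists and groupings were chosen with earlier results of these data known, so no p-value is given for a value over the members. The regions named are, per cluster, the 2 brightest in input, the 2 highest and 2 lowest in ratio, up to 3 called regions per direction by size (or the one with the lowest p where none was called), and regions called on 1 channel. Other regions were named after their values were seen. Alternatives were normexp, equal scale, quantile and loess normalization, the authors' table, filters on dim probes and outlier spots, the median of the probes, a gap of 300 bp, slide and replicate number as blocks, and leaving out each array.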

Additional observations from a re-analysis of the deposited data

How the results depend on the processing

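The mean levels of the clusters against other regions kept their sign under every alternative run on them, though not on every array with the input above background, and the calls between the groups changed with the processing. Region calls on the ratio (7, 1 and 5 on chromosomes 2, 13 and 17) became 0, 0 and 0 with slide as a random block, 2, 2 and 4 with normexp, 3, 3 and 2 (lower in the inulin group) at equal scale, 0, 1 (lower) and 0 with quantile normalization, 8, 2 and 5 with loess, and 0, 1 and 1 (lower) in the authors' table. They were 6, 2 and 3 (1 of these lower) with both channels above background, 14, 3 and 8 with outlier spots kept, 11, 3 and 7 over probes measured on all arrays, 4, 0 and 3 with the median of the probes, and 5, 2 (1 of these lower) and 3 with a gap of 300 bp. Of all regions the ratio calls covered 7.42% as reported, 0.00% with the slide block, 8.51% with normexp and 4.04% at equal scale. They covered 2.20% with quantile normalization, 12.4% with loess and 2.51% in the authors' table. With both channels above background the share was 5.98%, with outlier spots kept 11.7%, and over probes measured on all arrays 10.4%. It was 3.25% with the median of the probes and 6.51% with a gap of 300 bp. Whether the replicate numbers pair the samples was not settled. Deviations from the group means correlated at -0.14, 0.28 and 0.33 between arrays of the same number, and other pairings were not compared. With the replicate number as a block the calls were 12, 2 and 10 on the ratio, 0 on the chromosome 2 input, and 2699 regions over the array. Input calls (1, 0 and 0) became 0 on chromosome 2 with the slide block, quantile normalization and both channels above background, 3 there at equal scale, 1 on chromosome 13 with the input above background, 6, 7 and 3 with outlier spots kept and 10, 8 and 3 over probes measured on all arrays. Of all regions the input calls covered 2.14% as reported, 0.602% with the slide block, 1.01% with quantile normalization and 0.851% with both channels above background. They covered 3.39% at equal scale, 1.21% with the input above background, 24.7% with outlier spots kept and 17.6% over probes measured on all arrays. With outlier spots kept, the share in each cluster was below that of the whole array. The filter on both channels, the outlier spots kept and the probes measured on all arrays were chosen after the data were seen. After quantile normalization the median ratio difference over the regions was -0.099, -0.10 and -0.0064 on chromosomes 2, 13 and 17. On chromosome 13 it was -0.011 in input and -0.050 in MeDIP signal. Group differences of the cluster medians, for which quantile normalization is not listed, changed sign as follows. The ratio turned to -0.24 and -0.0795 on chromosome 2 (equal scale, authors' table), to -0.0268, -0.13, -0.0114, -0.0441 and -0.12 on chromosome 13 (normexp, equal scale, both channels above background, loess, authors' table) and to -0.0026, -0.00514 and -0.0543 on chromosome 17 (equal scale, both channels, authors' table). The input turned to -0.0282 on chromosome 13 (both channels) and 0.0339 on chromosome 17 (outlier spots kept). The MeDIP signal turned to -0.0339, -0.014 and -0.0216 on chromosome 13 (normexp, equal scale, both channels), and to 0.00909, 0.18 and 0.18 on chromosome 17 (normexp, both channels, probes measured on all arrays). The chromosome 13 minus 17 contrast in MeDIP signal turned to -0.043 with normexp. With the input above background, the chromosome 17 input level was -0.0522 and the chromosome 2 MeDIP level 0.15 against other regions. The causes were not tested. Without 1 array in turn, ratio calls ran from 0 to 8, 0 to 3 and 0 to 6, and chromosome 2 input calls from 0 to 1. Ratio calls were 0 without any 1 inulin array (0.00% of all regions), 2, 0 and 1 without obesity array 1 (4.22%), 8, 3 (2 of these lower) and 6 without obesity array 2 (9.62%), and 6, 0 and 3 without obesity array 3 (2.80%). The group difference of the ratio then ran from 0.21 to 0.32, -0.0539 to 0.0899, 0.13 to 0.29 on chromosomes 2, 13 and 17, and the level against other regions from -2.32 to -2.24, -0.67 to -0.62, -1.05 to -0.95. The group difference of the input signal then ran from 0.31 to 0.50, -0.00259 to 0.0601, -0.12 to -0.0233 on chromosomes 2, 13 and 17, and the level against other regions from 2.74 to 2.88, 0.19 to 0.22, -0.34 to -0.29. The group difference of the MeDIP signal then ran from 0.47 to 0.61, -0.0546 to 0.12, -0.10 to 0.0349 on chromosomes 2, 13 and 17, and the level against other regions from 0.36 to 0.49, -0.73 to -0.67, -1.48 to -1.42. Between clusters (2 minus 13, 2 minus 17, 13 minus 17) the level of the ratio ran from -1.67 to -1.61, -1.33 to -1.27, 0.32 to 0.40, and its group difference from 0.23 to 0.26, -0.0213 to 0.13, -0.28 to -0.11. Between clusters (2 minus 13, 2 minus 17, 13 minus 17) the level of the input signal ran from 2.54 to 2.66, 3.05 to 3.21, 0.50 to 0.56, and its group difference from 0.31 to 0.44, 0.33 to 0.59, 0.0207 to 0.17. Between clusters (2 minus 13, 2 minus 17, 13 minus 17) the level of the MeDIP signal ran from 1.03 to 1.22, 1.77 to 1.97, 0.74 to 0.77, and its group difference from 0.42 to 0.58, 0.51 to 0.68, 0.0502 to 0.0955. Single turns of sign were seen on chromosome 13 without obesity array 2 (ratio -0.0539, MeDIP -0.0546), 1 (MeDIP -0.000916) or 3 (input -0.00259), on chromosome 17 without obesity array 3 (MeDIP 0.0349), and in the ratio contrast of chromosomes 2 and 17 without inulin array 1 (-0.0213). The MeDIP signal was above background on all arrays at 53.1% of the chromosome 17 probes.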
